A study of Mus musculus with 7 samples.

Results

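The interferon-stimulated genes of the bleomycin-injured mouse lung were 44 listed genes among the 55401 genes of the deposited table of raw read counts, found by matching each gene identifier to its GENCODE vM21 symbol. They were divided, from general knowledge of which interferon is the main inducer, into 30 type I genes, 8 interferon-gamma genes and 6 genes driven by either, here called shared. Many of the 44 respond to both interferons, so the classes overlap in biology. Lung RNA was compared between 4 mice given bleomycin (BLM) and 3 mice given bleomycin and then hyperbaric oxygen (BLM+HBO), with 1 library for each mouse. All were male C57BL/6 mice of 6 to 8 weeks with lungs injured by bleomycin, an antitumour antibiotic whose lung toxicity ends in fibrosis. The BLM+HBO mice breathed oxygen at 2.5 ATA for 90 min per day over 14 days, starting from randomisation on day 7, and lungs were taken on day 21. The sample records place the BLM mice in the chamber without pressurised oxygen, whereas the methods of the study describe them as untreated, and which applied was not settled here. Oxygen and pressure were given together, so they cannot be told apart, and lungs without bleomycin were not analysed here.

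Interferons are secreted proteins that warn cells of viruses and other microbes. Type I interferons (interferon-alpha and interferon-beta) bind the receptor made of Ifnar1 and Ifnar2, and the kinases Jak1 and Tyk2 then switch on the factor ISGF3, of which Stat2 and Irf9 are parts. ISGF3 binds the interferon-stimulated response element (ISRE) in the promoters of antiviral genes. Interferon-gamma, made mainly by NK cells and T cells, binds Ifngr1 and Ifngr2, and signals through Jak1 and Jak2 to the gamma-activated site (GAS) in genes such as Irf1. In the lung these programmes are best known from viral infection, where epithelial cells, macrophages and lymphocytes all respond.

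Promoter sequences from RefSeq (GRCm38.p6, 250 bases before to 50 bases after each start) were at hand for 33 of the 44 genes. The windows were searched on both strands for an ISRE core (GAAANNGAA) and a GAS core (TTCNNNGAA), where N is any base, and the matches may overlap each other. An ISRE core was found in 19 of the 33 genes (57.6%) and in 9.76% of the 27025 genes with a window, or 8.56% of all windows. A GAS core was found in 11 of the 33 genes (33.3%) and in 9.55% of all genes. By class, 13 of 22 type I genes, 6 of 7 interferon-gamma genes and 0 of 4 shared genes held an ISRE core, and 6 of 22, 4 of 7 and 1 of 4 held a GAS core. A match describes the letters of the window and is not evidence of binding, and the matches were not compared with the measured differences.

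The stretches below show how these letters lie in a few members whose levels are described later, each being the 150 bases before a start site, read 5′ to 3′ on the strand of the gene, with motif matches of either strand in capitals. Isg15 and Ifit1 are type I genes with several ISRE cores, Irf1 holds a GAS core alone, Igtp and Gbp7 hold both, and Isg20 holds a GAS core.
Isg15 (chr4:156200819-156200968, minus strand): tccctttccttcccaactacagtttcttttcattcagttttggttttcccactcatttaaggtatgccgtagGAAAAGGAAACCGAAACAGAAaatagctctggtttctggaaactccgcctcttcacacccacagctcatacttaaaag
Ifit1 (chr19:34640739-34640888, plus strand): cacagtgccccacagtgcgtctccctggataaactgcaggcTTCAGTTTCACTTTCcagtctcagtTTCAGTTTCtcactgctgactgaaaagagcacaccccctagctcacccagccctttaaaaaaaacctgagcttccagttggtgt
Irf1 (chr11:53769864-53770013, plus strand): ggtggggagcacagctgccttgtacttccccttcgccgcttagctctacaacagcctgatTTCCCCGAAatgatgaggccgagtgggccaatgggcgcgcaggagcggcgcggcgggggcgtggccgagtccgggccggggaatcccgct
Igtp (chr11:58199406-58199555, plus strand): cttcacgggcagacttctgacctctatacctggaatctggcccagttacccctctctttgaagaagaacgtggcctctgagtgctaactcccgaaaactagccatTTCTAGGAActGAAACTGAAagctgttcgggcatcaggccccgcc
Gbp7 (chr3:142530186-142530335, plus strand): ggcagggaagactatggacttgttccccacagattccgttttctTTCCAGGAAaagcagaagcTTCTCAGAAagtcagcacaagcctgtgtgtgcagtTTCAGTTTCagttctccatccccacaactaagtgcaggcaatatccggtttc
Isg20 (chr7:78913274-78913423, plus strand): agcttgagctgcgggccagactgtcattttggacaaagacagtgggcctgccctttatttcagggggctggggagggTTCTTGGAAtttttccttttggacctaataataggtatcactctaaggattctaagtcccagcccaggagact
The capitals of Isg15 are 3 joined ISRE cores, which begin 78, 72 and 66 bases before the start. In Ifit1 the cores read on the opposite strand and begin 109, 103 and 84 bases before the start. The GAS core of Irf1 begins 90 bases before the start of 1 of its 2 windows. That of Isg20 begins 73 bases before the start of the window printed, and the other windows of Isg20 held no match.

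The libraries held between 18157161 and 26365969 counts, and 17465 genes passed the filter on low counts, among them all 44 interferon-stimulated genes. Levels are given as CPM, which are counts scaled to a common library size after TMM normalisation, and comparisons between genes as TPM, which also divides by the length of the gene. Differences are log2 fold changes of BLM+HBO against BLM with their standard errors from edgeR's quasi-likelihood test, and the thresholds were those of the study, a fold change over 1.5 and an unadjusted P under 0.05. The study applied these thresholds to a DESeq2 fit. Among all tested genes, 6.29% passed them by edgeR in either direction, and 3.4% were higher in BLM+HBO. At an unadjusted P below 0.05 alone the shares were 10.7% in either direction and 5.11% higher. By edgeR 0.0% of the genes had an adjusted P below 0.05, and by DESeq2 0.918% had. As a check of the tissue, Sftpc, the surfactant gene of alveolar type 2 cells, lay at 4549, 8327, 9381 and 8263 CPM in BLM 1 to BLM 4 and at 14821, 6535 and 16262 CPM in BLM+HBO 1 to BLM+HBO 3.

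The interferon-stimulated genes were mostly a little higher in BLM+HBO, and few of them differed by more than the mice varied. Of the 44 genes, 36 had a higher and 8 a lower mean estimate in BLM+HBO. Their median log2 fold change was 0.25, against 0.0071 for all tested genes, of which 51.2% were higher. At an unadjusted P below 0.05 there were 7 members, all higher in BLM+HBO, namely Isg20, Ifi44, Xaf1, Sp100, Trim30a, Cmpk2 and Irf1. That is 15.9% of the members, beside a background of 5.11% of genes higher and 10.7% in either direction. By edgeR only Ifi44 of the 44 passed both this P and the 1.5-fold limit, beside the background of 3.4% of genes. By DESeq2 2 members, Ifi44 and Mx2, passed both. No member had an adjusted P below 0.05 by edgeR (lowest 0.423) or by DESeq2, which put 8 members at an unadjusted P below 0.05. The values of the 3 BLM+HBO mice all lay above those of the 4 BLM mice in 3 members (Isg20, Cmpk2 and Irf1) and all below in 0, where 4.05% of all tested genes lay fully above and 8.77% did not overlap in either direction.

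**Figure D1:**
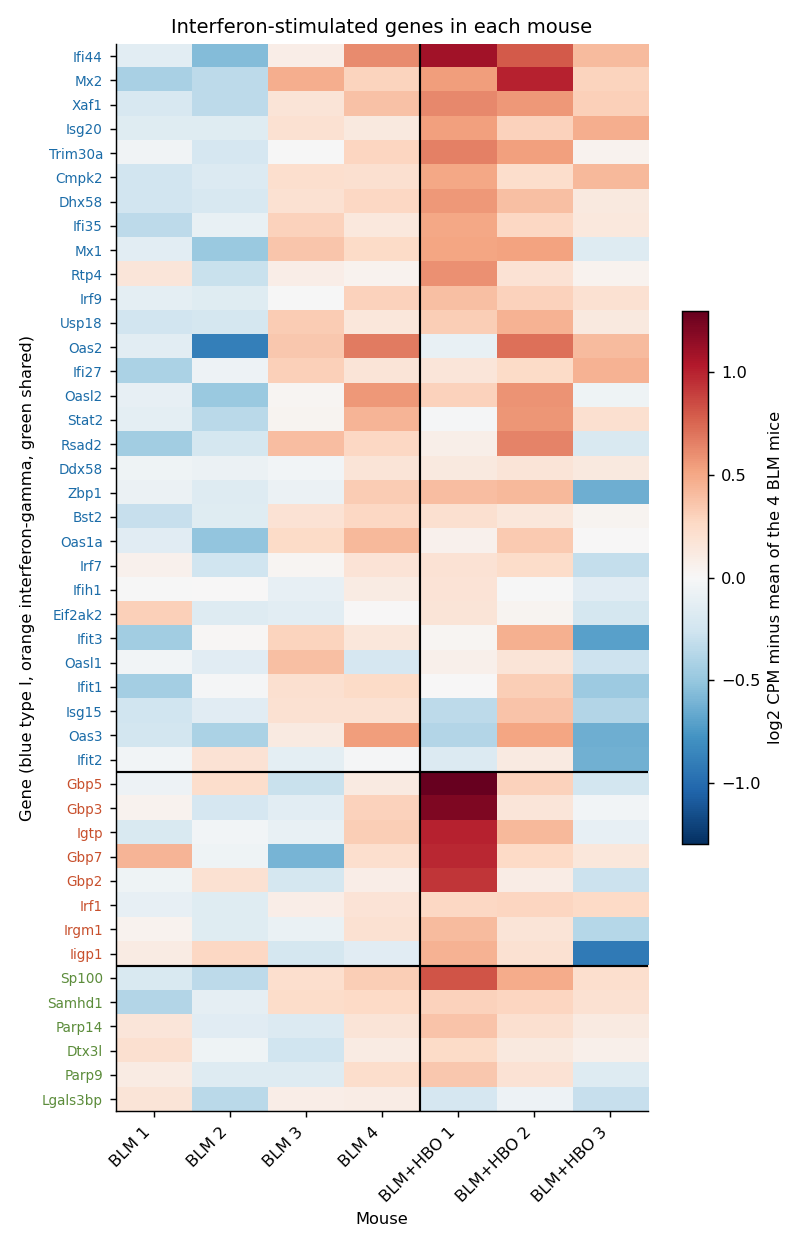
Level of each of the 44 genes (rows, by class) in each mouse (columns), as log2 CPM minus the mean of the 4 BLM mice, with red above and blue below that mean. BLM+HBO 1 shows the deepest red in the interferon-gamma block, while BLM+HBO 3 is blue for several of the same genes.

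Which mouse was highest or lowest varied with the class. BLM+HBO 1 was the highest of the 7 mice for 22 of the 44 genes, BLM+HBO 2 for 14 and BLM+HBO 3 for 1. BLM+HBO 3 was the lowest mouse for 13 genes, and BLM 2 was the lowest for 16. The 3 treated mice therefore did not move together. The calls rested on single mice too. Without BLM+HBO 1, 31 of the 44 genes were higher, 1 was at an unadjusted P below 0.05 and 0 passed the thresholds. Without BLM+HBO 3, 42 were higher, 13 were at an unadjusted P below 0.05 and 6 passed the thresholds. The share of all tested genes at that P moved as well. It was 10.7% with all mice, 5.7% without BLM+HBO 1 and 7.14% without BLM+HBO 3.

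**Figure D2:**
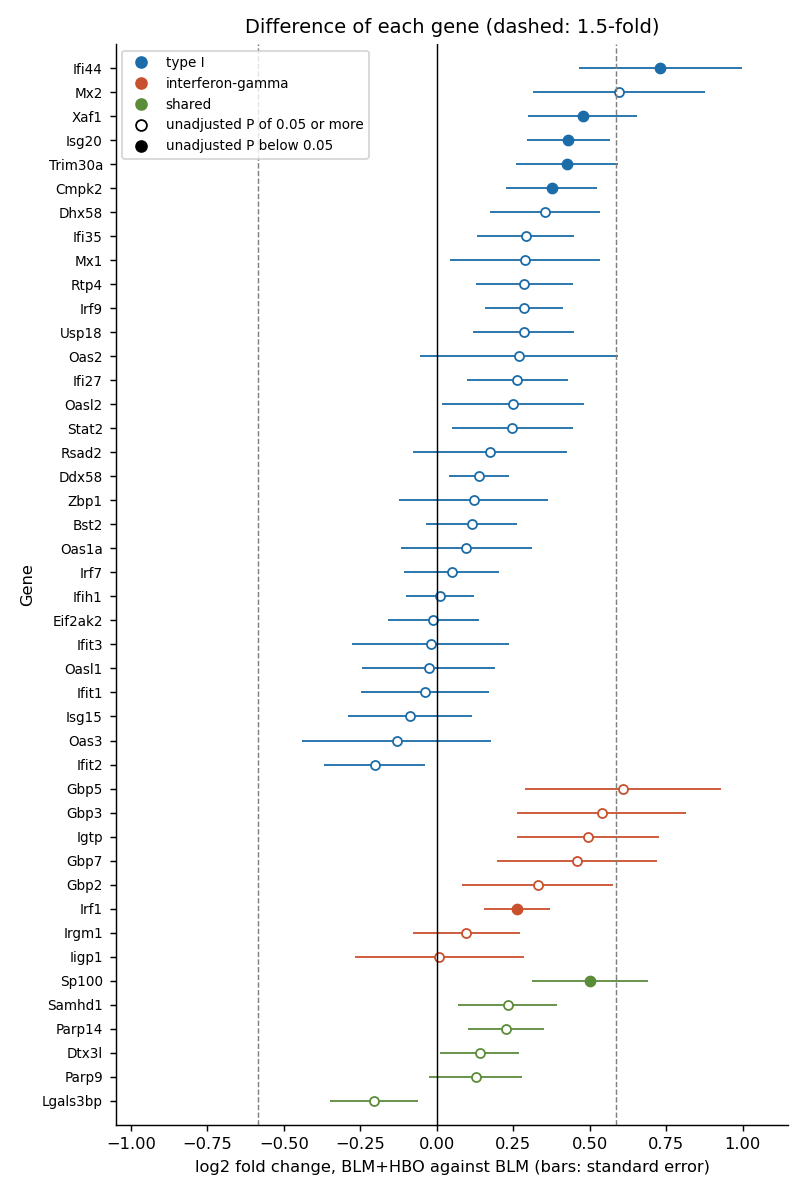
Log2 fold change of each gene, BLM+HBO against BLM (x axis), with bars for the standard error, filled where the unadjusted P was below 0.05, and dashed lines at 1.5-fold in either direction. The 7 filled points lie between 0.26 and 0.73, all to the right of 0, and the 8 interferon-gamma genes are all at or above 0.0089.

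Among the type I genes, 23 of 30 were higher in BLM+HBO and 5 were at an unadjusted P below 0.05, with a median log2 fold change of 0.25 and a range from -0.20 to 0.73. The regulators of the pathway come first. Irf9, the DNA-binding part of ISGF3 (chr14:55603571-55610030, plus strand), lay at 63.6, 62.1, 69.2 and 85.4 CPM in BLM 1 to BLM 4 and at 90.9, 85.5 and 79.9 CPM in BLM+HBO 1 to BLM+HBO 3. The BLM+HBO mice were higher than 3 of the BLM mice and overlapped with BLM 4, and the log2 fold change was 0.29 ± 0.13 (unadjusted P = 0.0509, adjusted P = 0.469). Stat2, its partner (chr10:128270559-128292849, plus strand), lay at 59.7, 51.2, 67.3 and 89.1 CPM in BLM 1 to BLM 4 and at 64.8, 97.4 and 75.6 CPM in BLM+HBO 1 to BLM+HBO 3. BLM+HBO 2 and BLM 4 were the high mice of their groups, the ranges overlapped, and the log2 fold change was 0.25 ± 0.20 (unadjusted P = 0.241).

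Irf7, the factor that amplifies type I interferon production (chr7:141262706-141266481, minus strand), lay at 61.9, 49.5, 60.4 and 66.9 CPM in BLM 1 to BLM 4 and at 67.7, 70.02 and 47.7 CPM in BLM+HBO 1 to BLM+HBO 3. Its highest and its lowest mouse were both in BLM+HBO, and its log2 fold change was 0.049 ± 0.16 (unadjusted P = 0.760). Its direction turned when BLM 2, BLM+HBO 1 or BLM+HBO 2 was left out. Usp18, the protease that removes ISG15 from proteins and restrains the type I receptor (chr6:121245906-121270917, plus strand), lay at 26.2, 26.5, 39.3 and 34.6 CPM in BLM 1 to BLM 4 and at 39.1, 42.7 and 33.97 CPM in BLM+HBO 1 to BLM+HBO 3. Its ranges overlapped through BLM 3 and BLM 4, and its log2 fold change was 0.28 ± 0.16 (unadjusted P = 0.117).

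Ifi44, an antiviral effector of the type I response (chr3:151730922-151749960, minus strand), had the largest estimate of the 44 and was the single member past the thresholds by edgeR. It lay at 11.1, 8.23, 12.96 and 18.6 CPM in BLM 1 to BLM 4 and at 26.03, 21.3 and 16.2 CPM in BLM+HBO 1 to BLM+HBO 3, which is 12.7 ± 4.40 (SD, n = 4) for the BLM mice against 21.2 ± 4.92 (SD, n = 3) for the BLM+HBO mice. BLM 4 lay above BLM+HBO 3, so the groups overlapped. The log2 fold change was 0.73 ± 0.27, or 1.66-fold (unadjusted P = 0.0213, adjusted P = 0.428 by edgeR). The call was lost when BLM 1, BLM 2 or BLM+HBO 1 was left out, with estimates of 0.67, 0.57 and 0.56.

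Isg20, an exonuclease that degrades viral RNA (chr7:78913424-78920396, plus strand), had the lowest P of the 44. It lay at 20.5, 20.5, 26.3 and 25.1 CPM in BLM 1 to BLM 4 and at 33.4, 28.2 and 31.8 CPM in BLM+HBO 1 to BLM+HBO 3, which is 23.1 ± 3.02 (SD, n = 4) for the BLM mice against 31.1 ± 2.66 (SD, n = 3) for the BLM+HBO mice. All 3 BLM+HBO mice were above all 4 BLM mice, and the log2 fold change was 0.43 ± 0.14 (unadjusted P = 0.0103, adjusted P = 0.423 by edgeR), below the 1.5-fold limit. It was also the single member at an unadjusted P below 0.05 when BLM+HBO 1 was left out. Xaf1, a promoter of cell death induced by interferon (chr11:72301629-72313733, plus strand), lay at 28.96, 26.4, 37.6 and 43.6 CPM in BLM 1 to BLM 4 and at 51.8, 49.4 and 41.5 CPM in BLM+HBO 1 to BLM+HBO 3. Only BLM 4 reached the range of the BLM+HBO mice, and the log2 fold change was 0.48 ± 0.18 (unadjusted P = 0.0236, adjusted P = 0.436 by edgeR).

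Trim30a and Cmpk2 were the other type I genes at an unadjusted P below 0.05, and they are given in full because their P was seen to be low. Trim30a, a TRIM protein that dampens innate signalling, lay at 51.2, 45.4, 52.8 and 64.3 CPM in BLM 1 to BLM 4 and at 83.7, 76.9 and 54.8 CPM in BLM+HBO 1 to BLM+HBO 3. BLM 4 was above BLM+HBO 3, and the log2 fold change was 0.43 ± 0.17 (unadjusted P = 0.0287, adjusted P = 0.440 by edgeR). Cmpk2, a mitochondrial nucleotide kinase next to Rsad2 on chromosome 12, lay at 21.5, 22.6, 29.6 and 29.4 CPM in BLM 1 to BLM 4 and at 36.3, 29.96 and 34.1 CPM in BLM+HBO 1 to BLM+HBO 3. The groups did not overlap, although BLM+HBO 2 was only just above BLM 3 and BLM 4, and the log2 fold change was 0.38 ± 0.15 (unadjusted P = 0.0323, adjusted P = 0.443 by edgeR).

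**Figure D3:**
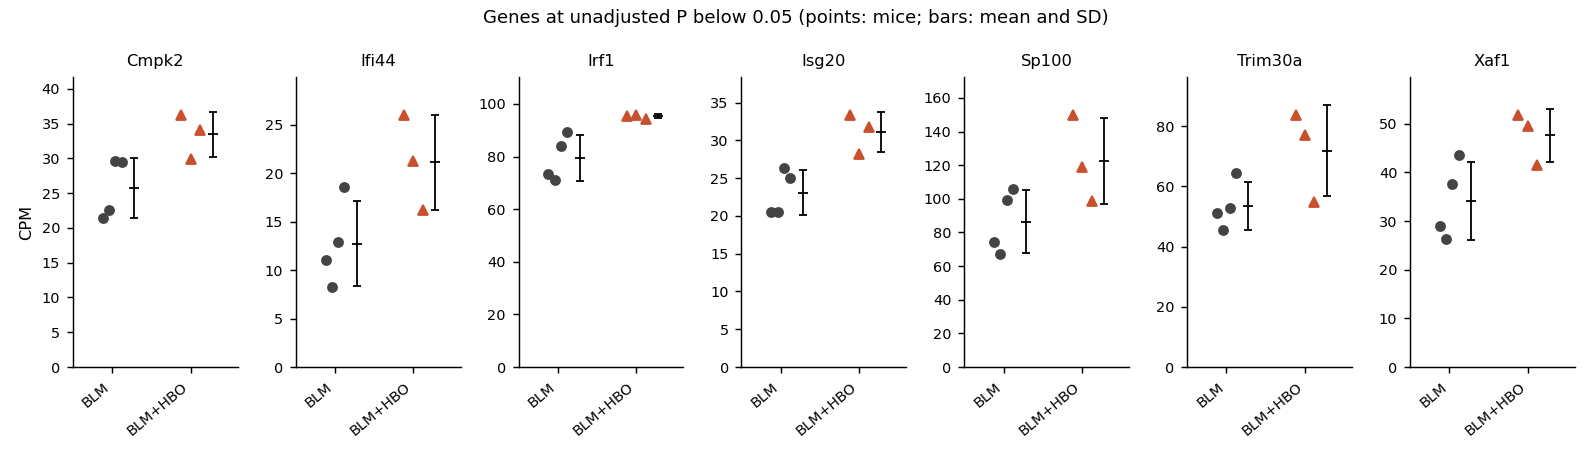
CPM of the 7 genes at an unadjusted P below 0.05 in each mouse (points, y axis from 0), with the mean and SD of each group as bars. The groups are fully apart for Cmpk2, Irf1 and Isg20 and overlap for Ifi44, Sp100, Trim30a and Xaf1.

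The Mx GTPase genes had higher estimates in BLM+HBO, but by edgeR neither passed both thresholds. Mx2 (chr16:97535308-97560900, plus strand), the type I gene with the lowest level per length, lay at 4.46, 4.73, 8.40 and 7.37 CPM in BLM 1 to BLM 4 and at 8.84, 12.1 and 7.39 CPM in BLM+HBO 1 to BLM+HBO 3. BLM+HBO 2 was the highest mouse, BLM 3 overlapped with the BLM+HBO range, and the log2 fold change was 0.60 ± 0.28 (unadjusted P = 0.0609, adjusted P = 0.492 by edgeR). That estimate was just over 1.5-fold. By DESeq2 the log2 fold change of Mx2 was 0.59 with an unadjusted P of 0.0419, which passed both thresholds. The log2 fold change of Mx1 was 0.29 ± 0.24. Bst2, the tetherin that holds budding virus at the membrane (chr8:71534255-71537456, minus strand), lay at 117, 129.5, 164 and 175 CPM in BLM 1 to BLM 4 and at 167, 160.2 and 148 CPM in BLM+HBO 1 to BLM+HBO 3. The BLM+HBO mice fell inside the range of the BLM mice, and the log2 fold change was 0.11 ± 0.15 (unadjusted P = 0.461).

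The best known antiviral type I genes did not differ detectably. The Ifit genes, whose proteins bind foreign RNA, had log2 fold changes of -0.039 ± 0.21 for Ifit1, -0.20 ± 0.17 for Ifit2 and -0.02 ± 0.26 for Ifit3. Isg15, the ubiquitin-like modifier whose promoter is printed above, lay at 34.3, 37.03, 47.2 and 47.1 CPM in BLM 1 to BLM 4 and at 32.3, 53.1 and 31.5 CPM in BLM+HBO 1 to BLM+HBO 3, and its log2 fold change was -0.088 ± 0.20. BLM+HBO 2 was its highest mouse and BLM+HBO 3 its lowest. Rsad2 (viperin) had a log2 fold change of 0.18 ± 0.25. As a description chosen after the values were seen, the mean of Ifit1, Ifit2, Ifit3, Isg15 and Rsad2 on the log2 CPM scale was -0.33, -0.04, 0.20 and 0.17 in BLM 1 to BLM 4 and -0.08, 0.38 and -0.47 in BLM+HBO 1 to BLM+HBO 3, relative to the BLM mean. The BLM+HBO mice thus spanned the whole range of these 5 genes.

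Some proteins of the 2′-5′ oligoadenylate synthetase family activate an RNA-degrading nuclease. The genes of this family had log2 fold changes of 0.10 ± 0.21 for Oas1a, 0.27 ± 0.32 for Oas2, -0.13 ± 0.31 for Oas3, -0.026 ± 0.22 for Oasl1 and 0.25 ± 0.23 for Oasl2. Oas2 lay at 27.04, 16.1, 37.9 and 47.5 CPM in BLM 1 to BLM 4 and at 27.8, 48.8 and 39.5 CPM in BLM+HBO 1 to BLM+HBO 3, so its spread within BLM was wider than the difference. The cytosolic RNA sensors had log2 fold changes of 0.012 ± 0.11 for Ifih1 (MDA5), 0.14 ± 0.10 for Ddx58 (RIG-I) and 0.35 ± 0.18 for Dhx58 (LGP2). The other type I genes had log2 fold changes of 0.26 ± 0.16 for Ifi27, 0.29 ± 0.16 for Ifi35, 0.29 ± 0.16 for Rtp4, 0.12 ± 0.24 for Zbp1, a sensor of nucleic acids, and -0.011 ± 0.15 for Eif2ak2, the kinase PKR. None of the genes in this paragraph was at an unadjusted P below 0.05.

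Among the interferon-gamma genes, all 8 were higher in BLM+HBO, with a median log2 fold change of 0.40 and a range from 0.0089 to 0.61, and 1 was at an unadjusted P below 0.05. That was Irf1, a transcription factor that acts on later target genes (chr11:53770014-53778374, plus strand). It lay at 73.5, 71.01, 84.00 and 89.2 CPM in BLM 1 to BLM 4 and at 95.5, 95.8 and 94.4 CPM in BLM+HBO 1 to BLM+HBO 3, which is 79.4 ± 8.64 (SD, n = 4) for the BLM mice against 95.2 ± 0.753 (SD, n = 3) for the BLM+HBO mice. The BLM+HBO mice were nearly alike and all above the BLM mice, and the log2 fold change was 0.26 ± 0.11 (unadjusted P = 0.0364, adjusted P = 0.452 by edgeR). In the annotation, 20.0% of the exon bases of Irf1 also belong to Gm17334, and unstranded counting leaves out reads on bases that 2 genes share.

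The guanylate-binding proteins, GTPases that attack the vacuoles of intracellular microbes, followed BLM+HBO 1. Gbp2 (chr3:142620602-142638008, plus strand), the interferon-gamma gene with the highest level per length, lay at 63.9, 76.4, 56.8 and 70.6 CPM in BLM 1 to BLM 4 and at 127, 71.1 and 54.9 CPM in BLM+HBO 1 to BLM+HBO 3. BLM+HBO 1 was the highest mouse and BLM+HBO 3 the lowest, and the log2 fold change was 0.33 ± 0.25 (unadjusted P = 0.212). It was -0.09 without BLM+HBO 1. Gbp3 (chr3:142560026-142573209, plus strand) lay at 35.4, 29.5, 31.1 and 42.3 CPM in BLM 1 to BLM 4 and at 79.5, 38.05 and 33.4 CPM in BLM+HBO 1 to BLM+HBO 3. BLM+HBO 2 and BLM+HBO 3 were within the range of the BLM mice, and the log2 fold change was 0.54 ± 0.28 (unadjusted P = 0.0814, adjusted P = 0.516 by edgeR). It was 0.05 without BLM+HBO 1.

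Gbp5 (chr3:142493978-142522344, plus strand), the lowest of the class per length, lay at 14.9, 18.4, 12.8 and 16.95 CPM in BLM 1 to BLM 4 and at 39.8, 19.3 and 13.2 CPM in BLM+HBO 1 to BLM+HBO 3. Again BLM+HBO 1 alone was well above the BLM mice, and the log2 fold change was 0.61 ± 0.32 (unadjusted P = 0.0887), or 0.04 without that mouse. Gbp7 had a log2 fold change of 0.46 ± 0.26. These 4 genes lie beside each other on chromosome 3 and are similar in sequence, so reads that mapped to several copies would be left out. Gbp7 also shares 11.3% of its exon bases with Gm43802.

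The immunity-related GTPases, which also act on vacuoles, varied more. Igtp (Irgm3, chr11:58199556-58207591, plus strand) lay at 30.8, 34.4, 32.9 and 44.1 CPM in BLM 1 to BLM 4 and at 70.3, 47.3 and 32.8 CPM in BLM+HBO 1 to BLM+HBO 3. BLM+HBO 1 was highest, BLM+HBO 3 lay among the BLM mice, and the log2 fold change was 0.49 ± 0.23 (unadjusted P = 0.0611, adjusted P = 0.492 by edgeR). Without BLM+HBO 1 it was 0.17, and without BLM+HBO 3 it was 0.72 with an unadjusted P of 0.00506. The log2 fold changes of Irgm1 and Iigp1 were 0.10 ± 0.17 and 0.0089 ± 0.28, and BLM+HBO 3 was the lowest mouse for both.

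Among the shared genes, 5 of 6 were higher in BLM+HBO, with a median log2 fold change of 0.18, and 1 was at an unadjusted P below 0.05. Sp100, a nuclear body protein with antiviral activity (chr1:85649988-85709998, plus strand), lay at 74.1, 67.1, 98.99 and 106 CPM in BLM 1 to BLM 4 and at 149.9, 119 and 98.8 CPM in BLM+HBO 1 to BLM+HBO 3, which is 86.5 ± 18.8 (SD, n = 4) for the BLM mice against 122 ± 25.7 (SD, n = 3) for the BLM+HBO mice. BLM 3 and BLM 4 overlapped with BLM+HBO 3, and the log2 fold change was 0.50 ± 0.19 (unadjusted P = 0.0258, adjusted P = 0.438 by edgeR). Parp14, an ADP-ribosyltransferase (chr16:35832874-35871544, minus strand), lay at 101, 81.4, 79.7 and 101 CPM in BLM 1 to BLM 4 and at 116, 105 and 97.7 CPM in BLM+HBO 1 to BLM+HBO 3. BLM+HBO 3 lay below BLM 1 and BLM 4, and the log2 fold change was 0.23 ± 0.12 (unadjusted P = 0.0996).

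Samhd1, which depletes the nucleotides that viruses need (chr2:157097533-157135265, minus strand), lay at 220.4, 265, 338 and 344 CPM in BLM 1 to BLM 4 and at 353, 347 and 328 CPM in BLM+HBO 1 to BLM+HBO 3. BLM 1 and BLM 2 were the low mice, the others were alike, and the log2 fold change was 0.23 ± 0.16 (unadjusted P = 0.181). Dtx3l, a ubiquitin ligase (chr16:35926511-35939151, minus strand), lay at 44.1, 36.8, 31.8 and 41.2 CPM in BLM 1 to BLM 4 and at 45.4, 41.8 and 40.1 CPM in BLM+HBO 1 to BLM+HBO 3, with a log2 fold change of 0.14 ± 0.13 (unadjusted P = 0.304). Its partner Parp9, which starts beside it and shares exon bases with it, had a log2 fold change of 0.13 ± 0.15. Both Dtx3l and Parp9 differed by less than the mice varied.

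Lgals3bp, a secreted glycoprotein (chr11:118392751-118402092, minus strand), was the 1 shared gene with a lower estimate. It lay at 350.0, 244, 329 and 334 CPM in BLM 1 to BLM 4 and at 267, 298 and 253 CPM in BLM+HBO 1 to BLM+HBO 3. BLM 2 was the lowest of the 7 mice, the groups overlapped, and the log2 fold change was -0.21 ± 0.14 (unadjusted P = 0.183). It had the lowest estimate of the 44 genes, below Ifit2 at -0.20.

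The contrast of the classes was read per mouse, from the mean log2 CPM of each class relative to the mean of the BLM mice. The type I class lay at -0.17, -0.24, 0.16 and 0.25 in BLM 1 to BLM 4 and at 0.26, 0.39 and -0.03 in BLM+HBO 1 to BLM+HBO 3. Only BLM+HBO 2 was clearly above BLM 4, and BLM+HBO 3 lay inside the BLM range. The interferon-gamma class lay at 0.03, 0.01, -0.20 and 0.16 in the BLM mice and at 0.82, 0.24 and -0.19 in the BLM+HBO mice. BLM+HBO 1 stood apart and BLM+HBO 3 was at the level of the lowest BLM mouse. The shared class lay at 0.01, -0.20, -0.01 and 0.20 in the BLM mice and at 0.31, 0.20 and 0.02 in the BLM+HBO mice.

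BLM+HBO 1 was the highest mouse for 7 of 8 interferon-gamma genes, 5 of 6 shared genes and 10 of 30 type I genes, while BLM+HBO 2 was the highest for 13 of the 30 type I genes. Within BLM+HBO, the median SD of log2 CPM was 0.58 for the interferon-gamma genes, 0.29 for the type I genes and 0.23 for all tested genes, and within BLM it was 0.23, 0.28 and 0.23. Single mice decided much of each median log2 fold change. That of the interferon-gamma genes was 0.04 without BLM+HBO 1. The type I median of 0.25 was 0.09 without BLM+HBO 2 and 0.11 without BLM 2, and 0.17 without BLM 1. The shared median of 0.18 was 0.12 without BLM 3 or BLM+HBO 1. Whether the interferon-gamma and type I classes differed in their response was not tested, since the genes of a class are not replicates.

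**Figure D4:**
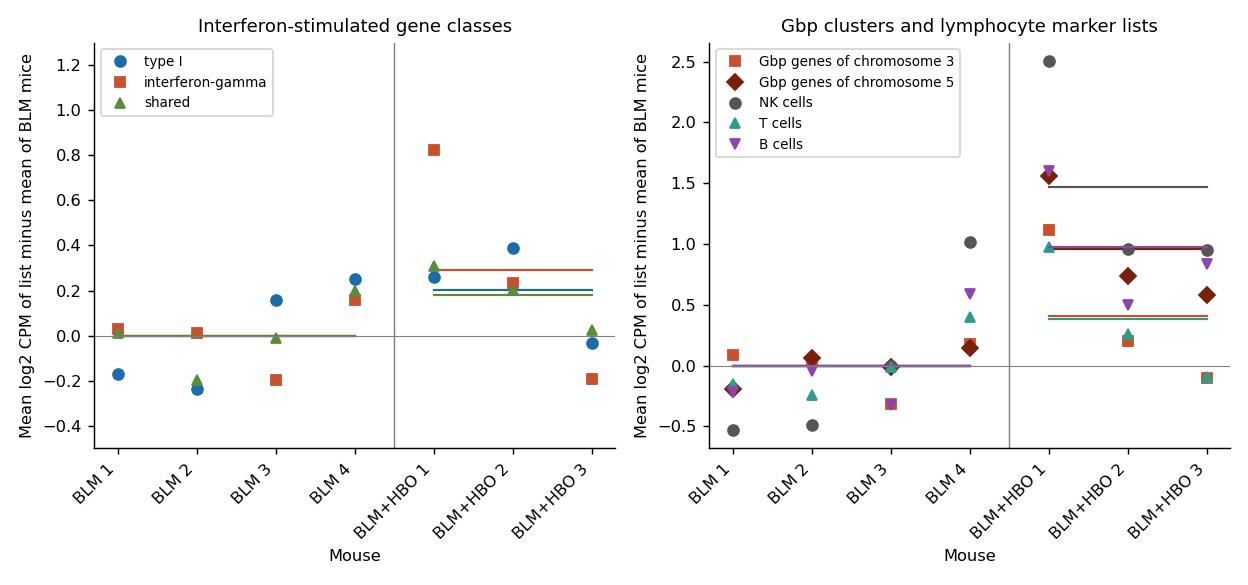
Mean log2 CPM of the genes of a list minus its mean over the 4 BLM mice, for each mouse (x axis), with horizontal lines at the group means. The left panel gives the 3 classes and the right panel the Gbp genes of chromosomes 3 and 5 with the NK, T and B cell marker lists, and BLM+HBO 1 is the highest mouse for every list but type I.

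On the TPM scale, which corrects for length, the 44 genes spanned wide levels in every mouse. Bst2 was highest, with 492 ± 92.9 TPM (SD, n = 4) for the BLM mice and 532 ± 41.96 TPM (SD, n = 3) for the BLM+HBO mice, and Mx2 was lowest, with 5.23 ± 1.56 TPM (SD, n = 4) for the BLM mice and 7.97 ± 2.32 TPM (SD, n = 3) for the BLM+HBO mice. Within the interferon-gamma class Gbp2 was highest, with 80.9 ± 10.99 TPM (SD, n = 4) for the BLM mice and 101 ± 44.8 TPM (SD, n = 3) for the BLM+HBO mice, and Gbp5 lowest, with 7.22 ± 1.18 TPM (SD, n = 4) for the BLM mice and 11.01 ± 6.29 TPM (SD, n = 3) for the BLM+HBO mice. Within the shared class Lgals3bp was highest, with 336 ± 60.1 TPM (SD, n = 4) for the BLM mice and 291 ± 34.6 TPM (SD, n = 3) for the BLM+HBO mice, and Dtx3l lowest, with 20.5 ± 3.70 TPM (SD, n = 4) for the BLM mice and 22.5 ± 1.65 TPM (SD, n = 3) for the BLM+HBO mice. Over all 7 mice Lgals3bp (317 TPM), Ifi27 (266 TPM), Ifit3 (218 TPM) and Isg15 (175 TPM) followed Bst2 (509 TPM). Many of these genes were thus well expressed in both groups, and the depth gave no low counts among the 44.

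**Figure D5:**
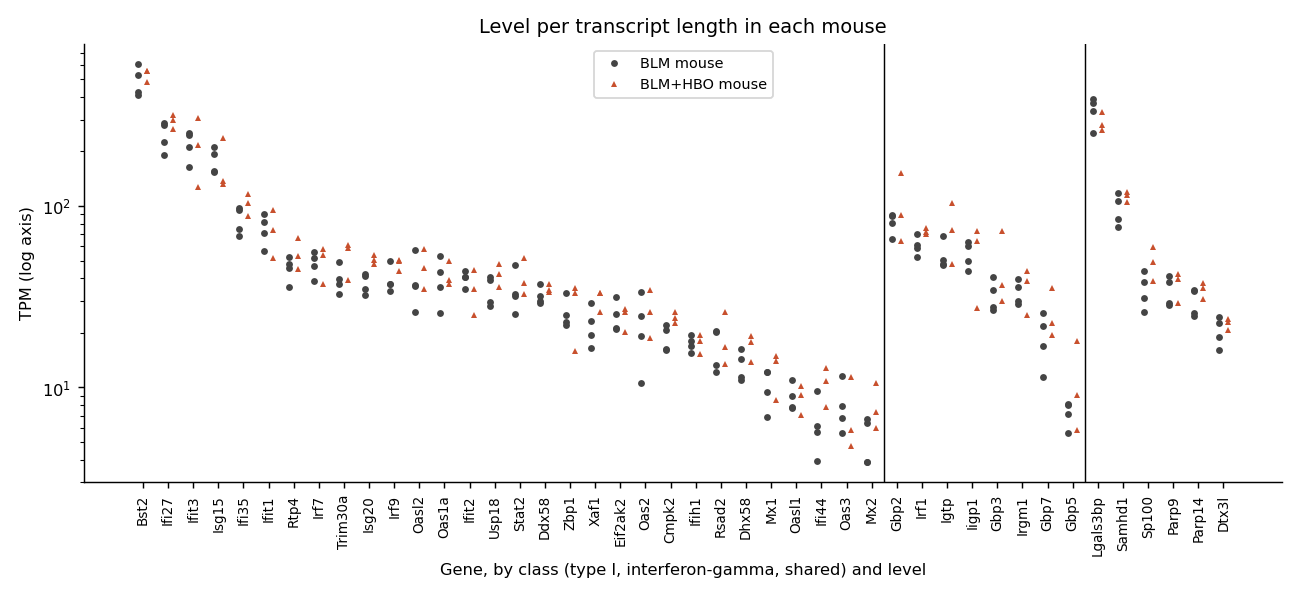
TPM of each gene in each mouse on a log axis, ordered by class and level, with circles for BLM and triangles for BLM+HBO. The groups lie over each other for most genes, between about the level of Mx2 (mean 6.40 TPM) and that of Bst2 (mean 509 TPM).

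The rest of the pathway was read from lists of other genes. None of the 21 interferon ligands passed the filter on low counts, and 13 had 0 counts in every mouse. Ifnb1, the gene of interferon-beta, had 0 counts in every mouse, which allows a level of up to between 0.112 CPM (BLM+HBO 3) and 0.169 CPM (BLM 2) by mouse, at 3 counts per library and for counting error only. Ifng, the gene of interferon-gamma, had 1, 6, 7 and 5 counts in BLM 1 to BLM 4 and 17, 6 and 3 counts in BLM+HBO 1 to BLM+HBO 3. BLM+HBO 1 had the most, and the values are too low for a comparison of the groups. These counts describe day 21 only.

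The receptors did not differ detectably, with 0 of 6 at an unadjusted P below 0.05 and log2 fold changes of -0.071 ± 0.11 for Ifnar1 and -0.037 ± 0.14 for Ifngr1, the latter above 0 without BLM 1 or BLM+HBO 3.

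Of 5 negative regulators, 1 passed the thresholds, beside 6.29% of all tested genes in either direction. Socs3, an inhibitor of cytokine signalling induced mainly by interleukin-6 and STAT3, lay at 235, 220.1, 269 and 247 CPM in BLM 1 to BLM 4 and at 92.9, 192 and 86.5 CPM in BLM+HBO 1 to BLM+HBO 3. All BLM+HBO mice were below all BLM mice, BLM+HBO 2 least so, and the log2 fold change was -0.97 ± 0.26 (unadjusted P = 0.00398, adjusted P = 0.423 from edgeR and 0.0233 from DESeq2). Socs1, the inhibitor induced by interferon-gamma, had a log2 fold change of -0.10 ± 0.19, or 0.06 without BLM+HBO 1.

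Interferon-gamma targets outside the 44 were also mostly higher in BLM+HBO. Of 20 listed genes, 18 passed the filter, 17 were higher in BLM+HBO, 11 were at an unadjusted P below 0.05 and 8 passed the thresholds, all higher, with a median log2 fold change of 0.56. The background was 5.11% of genes higher at that P and 3.4% past the thresholds as higher. The 8 were Psmb9, a subunit of the immunoproteasome (0.63 ± 0.19), Tgtp2 (0.76 ± 0.29) and 6 Gbp genes of chromosome 5, namely Gbp4 (1.10 ± 0.40), Gbp6 (0.68 ± 0.26), Gbp8 (0.63 ± 0.26), Gbp9 (0.63 ± 0.24), Gbp10 (1.64 ± 0.63) and Gbp11 (1.67 ± 0.48). Gbp4 lay at 22.1, 31.96, 21.2 and 50.8 CPM in BLM 1 to BLM 4 and at 112, 35.5 and 56.3 CPM in BLM+HBO 1 to BLM+HBO 3. BLM 4 was high in its group, and BLM+HBO 1 was highest of all. Gbp10 and Gbp11 were below 2 CPM in every mouse. As for the Gbp genes of chromosome 3, reads that mapped to several copies of this family would be left out. The count of 8 fell to 1 without BLM+HBO 1 and to 3 without BLM 1, BLM 2 or BLM 3.

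The Gbp genes of chromosome 5 lay, as a mean relative to the BLM mice on the log2 CPM scale, at 1.56, 0.74 and 0.58 in BLM+HBO 1 to BLM+HBO 3 and at -0.19, 0.06, -0.02 and 0.14 in BLM 1 to BLM 4. The 4 members on chromosome 3 lay at 1.12, 0.20 and -0.10 in the same BLM+HBO mice. By this mean, which weighs low genes such as Gbp10 and Gbp11 like the others, the cluster on chromosome 5 was above the BLM mice in all 3 BLM+HBO mice. That on chromosome 3 was above them in BLM+HBO 1 and, by little, BLM+HBO 2. Summed over the 6 genes of chromosome 5, the level was 89.8, 102, 71.4 and 125 CPM in BLM 1 to BLM 4. In BLM+HBO 1 to BLM+HBO 3 the sum was 256, 112 and 144 CPM, so BLM+HBO 2 lay below BLM 4. The ranges of the groups were fully apart for 1 of the 6 genes. The difference between the clusters was not tested. The chemokine genes of the same list, Cxcl9 and Cxcl10, which attract T cells, had log2 fold changes of 0.18 ± 0.41 and -0.29 ± 0.28, with unadjusted P of 0.676 and 0.327, and without BLM+HBO 1 the estimate of Cxcl9 was -0.24.

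Of 27 other type I targets, 26 passed the filter, 22 were higher in BLM+HBO, 6 were at an unadjusted P below 0.05 and 2 passed the thresholds, with a median log2 fold change of 0.21. Of all tested genes, 5.11% were higher at that P and 3.4% passed the thresholds as higher. The 2 targets past the thresholds were Ifi209 (0.67 ± 0.22) and Ifi213 (1.16 ± 0.32), members of the p200 family of DNA-binding proteins on chromosome 1. Without BLM+HBO 1 a single gene of this list passed, and without BLM+HBO 3 there were 6. Ifi213 lay at 8.98, 8.74, 6.97 and 11.95 CPM in BLM 1 to BLM 4 and at 33.8, 13.6 and 14.4 CPM in BLM+HBO 1 to BLM+HBO 3. All BLM+HBO mice were above all BLM mice, and edgeR gave an adjusted P of 0.423 and DESeq2 gave 0.0419.

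Marker lists of other cells differed from mouse to mouse, and some of them also between the groups. Of all tested genes, 3.4% passed the thresholds as higher in BLM+HBO and 6.29% in either direction. These shares are the background for each marker list below. In bulk RNA fewer cells of a type and less RNA per cell cannot be told apart. All 10 NK cell markers were higher in BLM+HBO and 8 passed the thresholds, and their summed level was 13.5 to 40.9 CPM in BLM and 129, 37.5 and 38.2 CPM in BLM+HBO 1 to BLM+HBO 3. The defining marker Ncr1 was at 0.386, 0.225, 0.494 and 2.42 CPM in BLM 1 to BLM 4 and at 4.21, 2.54 and 1.76 CPM in BLM+HBO 1 to BLM+HBO 3, so it was near 0 in 3 of the BLM mice. Of 8 B cell markers, 8 were higher and 7 passed, with summed levels of 78.0 to 143 CPM in BLM and 284, 137 and 167 CPM in BLM+HBO. Of 10 T cell markers, 9 were higher and 1 passed, with summed levels of 90.0 to 128 CPM in BLM and 178, 119 and 94.1 CPM in BLM+HBO. BLM+HBO 1 was the highest mouse for all 3 lists, as it was for the interferon-gamma genes, and without it 1 of 10 NK cell, 2 of 8 B cell and 0 of 10 T cell markers passed. NK cell markers that passed numbered 5 without BLM 1 or BLM 2, and T cell markers that passed numbered 5 without BLM+HBO 3 and 3 without BLM 4 or BLM+HBO 2.

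Of 7 tested markers of plasmacytoid dendritic cells, which can make much type I interferon, 4 were higher and 3 lower in BLM+HBO. Their median log2 fold change was 0.21, and 3 of the 7 passed the thresholds, all higher. Among those that passed was Siglech, which lay at 0.881, 1.24, 0.988 and 3.63 CPM in BLM 1 to BLM 4 and at 6.65, 2.82 and 3.04 CPM in BLM+HBO 1 to BLM+HBO 3. The summed level of that list was 240 to 313 CPM in BLM and 281, 315 and 230 CPM in BLM+HBO. Neutrophil markers summed to 182 to 239 CPM in BLM and to 520, 110 and 120 CPM in BLM+HBO, with 0 of 7 tested markers at an unadjusted P below 0.05, and BLM+HBO 1 was high for these too. With that mouse left out, all 7 passed the thresholds as lower in BLM+HBO, with a median log2 fold change of -0.87. Of 10 monocyte and macrophage markers, 8 were lower and 5 passed as lower, with summed levels of 1387 to 2075 CPM in BLM and 927, 1361 and 842 CPM in BLM+HBO. Of 8 fibroblast markers, 7 were lower and 5 passed as lower, with summed levels of 6186 to 10014 CPM in BLM and 2071, 6631 and 3527 CPM in BLM+HBO. The 5 fibroblast calls fell to 1 without BLM 1 or BLM+HBO 3, to 2 without BLM+HBO 1 and to 3 without BLM 2.

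Heart muscle markers were present in all libraries and had the largest median log2 fold change of the marker lists, 1.72. All 10 were higher in BLM+HBO and 9 passed, with summed levels of 64.0 to 177 CPM in BLM and 651, 528 and 156 CPM in BLM+HBO. Without BLM+HBO 1, 6 of 10 passed. BLM+HBO 1 and BLM+HBO 2 were the high ones. They also lay above BLM+HBO 3 for the type I, interferon-gamma and shared classes alike, so this order sets no class apart. The part of these cell markers in the differences of the interferon-stimulated genes was not tested.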

How the data were processed

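Right lung lobes of 7 mice were sequenced, 4 BLM and 3 BLM+HBO. Per the methods of the study and the submitters' processing notes, the authors trimmed reads, aligned them to GRCm38 with HISAT2 (version 2.2.0 in the notes) and deposited raw counts per gene from featureCounts (version 2.2.0 in the notes), at default settings, which ignore strand and leave out multi-mapping reads and reads shared by genes. The annotation release is not given in the sources used here. GENCODE vM21 gave a symbol to 55141 of 55401 genes, 54349 with the same identifier version. Libraries of 1 group differed by more than sampling noise (lowest chi-square per gene 22.1, over genes whose 2 counts sum to 20 or more), so each counted as a replicate.

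Low counts were removed by filterByExpr at a minimum of 10 per sample and 15 in total, and the rest were normalised by TMM (factors 0.964 to 1.036) and tested with edgeR 4.0.16 under R 4.3.3, without covariates, and with Benjamini-Hochberg adjustment over all 17465 tested genes. The common biological coefficient of variation was 0.222. Standard errors are the log2 fold change divided by the root of F, and log2 CPM used a prior count of 2. TPM used the deposited gene lengths. The fit was tested on simulated data. DESeq2 1.42.0, limma 3.58.1, other normalisations and filters, other thresholds, a replicate block and leaving out each mouse were alternatives.

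The members, classes, other gene lists and marker lists (T, NK and B cells, plasmacytoid dendritic cells, monocytes and macrophages, alveolar macrophages, neutrophils, endothelial, AT2 and ciliated cells, fibroblasts, heart muscle) were chosen with earlier results of these data known, so their counts are not independent evidence. Values in every mouse were given for members that passed the thresholds, for the 3 lowest P and the highest and lowest TPM of each class, and for Irf1, Irf7, Irf9, Stat2 and Usp18. Trim30a, Cmpk2, Isg15 and Oas2 were added after their values were seen. In the other lists, genes past the thresholds and a few fixed genes were named. 1 pathway gene is not reported here.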

Additional observations from a re-analysis of the deposited data

Results flagged for a closer look

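For the named members and pathway genes, 39 sets of 4 BLM mice were examined with Dixon's test for a mouse far from the others, and 2 stood out, where chance gives about 1 in 20. Lgals3bp lay at 7.93 log2 CPM in BLM 2 and between 8.36 and 8.45 in the other BLM mice, a gap of 0.831 of the whole range, just over the critical value. Gbp9 lay at 5.20 log2 CPM in BLM 3 and between 5.85 and 5.89 in the other BLM mice, a gap of 0.941 of the range.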

How the results depend on the processing

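No member reached an adjusted P below 0.05 under any of the 15 alternatives. The number of all genes past the thresholds, 1098 in the reported fit, was 1940 with no filter on low counts, 509 at a fold change above 2, 319 at an unadjusted P below 0.01 and 1861 with no fold limit, and between 659 (without BLM+HBO 1) and 1914 (without BLM+HBO 2) when a mouse was left out. The number of members past the thresholds, 1 in the reported fit, was 2 by DESeq2, 3 with no filter, 0 at a fold change above 2, 0 at an unadjusted P below 0.01, 7 with no fold limit, and between 0 and 6 when a mouse was left out (0 without BLM 2 or BLM+HBO 1, 2 without BLM 3 or BLM+HBO 2, 4 without BLM 4, 6 without BLM+HBO 3). The number of members at an unadjusted P below 0.05, 7 in the reported fit, a count whose alternatives were added after seeing the data, was 12 with no filter and between 1 and 13 when a mouse was left out (2 without BLM 1, 3 without BLM 2, 12 without BLM 4, 1 without BLM+HBO 1, 13 without BLM+HBO 3). The median log2 fold change of the interferon-gamma members ran from 0.0448 without BLM+HBO 1 to 0.5812 without BLM+HBO 3. The cause was not tested.

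The direction turned for single genes. Left out in turn, the mice gave log2 fold changes from -0.0875 (without BLM+HBO 1) to 0.56 for Gbp2, from -0.0524 (without BLM+HBO 2) to 0.20 for Irf7, from -0.2401 (without BLM+HBO 1) to 0.53 for Cxcl9, from -0.16 to 0.0912 (without BLM+HBO 3) for Ifngr1 and from -0.18 to 0.0569 (without BLM+HBO 1) for Socs1. In a fit with a replicate block on numbers 1 to 3, BLM 4 left out, 3 members passed the thresholds, 13 were at an unadjusted P below 0.05 and Cxcl9 was at -0.0625. The labels do not say that the numbers pair the mice. Same-numbered mice correlated at -0.008, -0.066 and 0.161 in their deviations from the group means. Mice with different numbers ran from -0.179 to 0.165, so these few values cannot settle whether mice were paired. With 7 mice, differences as small as most of these members showed cannot be told from the spread between mice.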

Other observations

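Among 14 nucleic acid sensors and adaptors that feed into interferon production, 7 were higher and 7 lower in BLM+HBO, and 2 were at an unadjusted P below 0.05, both lower and both below the 1.5-fold limit. That is 14.3% of the list, near the 10.7% of all tested genes at that P in either direction. The 2 were Tmem173 (STING), with a log2 fold change of -0.42 ± 0.18, and Myd88, the adaptor of Toll-like receptors, with -0.25 ± 0.10, named after their values were seen. The list held 0 genes at that P without BLM 4 or BLM+HBO 1, and 1 without BLM 1, BLM 2 or BLM+HBO 3. Of the marker lists not described so far, 1 of 8 AT2 cell genes and 2 of 8 ciliated cell genes passed the thresholds as higher in BLM+HBO, and 0 of 8 endothelial genes passed. Of all tested genes, 3.4% passed as higher and 6.29% in either direction. The endothelial count was 0 whichever mouse was left out, but the AT2 and ciliated counts changed. The AT2 count was 4 without BLM+HBO 2 and 0 when BLM+HBO 1, BLM+HBO 3, BLM 1 or BLM 3 was left out, and the ciliated count was 5 without BLM 3, 0 without BLM 2 or BLM+HBO 3 and 1 without BLM 1, BLM 4 or BLM+HBO 1. Of 8 alveolar macrophage genes, 3 passed as lower and 1 as higher, against 1 and 0 without BLM+HBO 3, and without BLM 4 there were 2 in each direction.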
